A study of Arabidopsis thaliana with 10 samples.

Results

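The Calvin cycle and photorespiration genes are 38 nuclear loci of Arabidopsis thaliana that were chosen by locus identifier: 24 of the Calvin cycle and its regulators and 14 of photorespiration, out of 33322 loci in the count files. The 24 comprise 4 Rubisco small-subunit genes, Rubisco activase, the enzymes that reduce and regenerate the sugar phosphates, and 3 CP12 genes. The rule uses locus identifiers and functions and no measured value, but the list was drawn up with earlier results of these data known. Of the 38, 37 passed the filter on low counts and were tested, and the exception was EMB3119 (AT3G04790), a ribose-5-phosphate isomerase gene of the Calvin cycle.

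In the Calvin cycle Rubisco fixes carbon dioxide onto ribulose bisphosphate, the product is reduced at the expense of ATP and NADPH, and most of the triose formed is used to rebuild the acceptor. When Rubisco takes oxygen in place of carbon dioxide it makes phosphoglycolate, which photorespiration returns to the cycle along a route through chloroplast, peroxisome and mitochondrion. A dark-grown seedling lives on seed reserves and runs neither pathway until light reaches it.

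RNA was taken from whole 2-day-old seedlings of the Columbia background, from about 100 mg of tissue per sample. After 3 h under white light and 15 min under far-red light the seeds stayed at 21 °C in darkness until harvest. All 10 genotypes had this treatment: wild type (WT), the single mutants pif1, pif3, pif4 and pif5, the triple mutants pif345, pif145, pif135 and pif134, and the quadruple mutant pifq. The mutated genes encode PHYTOCHROME INTERACTING FACTORS, basic helix-loop-helix transcription factors that act in darkness and are degraded when light activates phytochrome. The labels name neither alleles nor the number of lines behind a mutant, and each sample pools seedlings.

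The 3 biological replicates of a genotype are called A, B and C, and values below follow that order. The 30 libraries held between 18.97 and 70.81 M counts, with a median of 25.16 M. Levels are in CPM (counts scaled to a common library size of 1 M) after TMM scaling, with no division by gene length because the libraries hold 3′ ends. The libraries formed a set of WT with the single mutants and a set of the triple mutants with pifq, within which replicates of the same letter deviated together. WT and the mutants of the second set never share a set, so that in those comparisons set and genotype cannot be told apart. PIF3 and PIF5 transcripts were low wherever the label says they are mutated, whereas PIF1 stood at 58.1, 56.7 and 74.5 CPM in the libraries labelled pif134, against a WT mean of 25.0 CPM, and these libraries are therefore called by their label. PIF4 transcript was not low in pif4 or pifq, and counts at the 3′ end give no check of that lesion. In pif145, whose label names 3 of the 4 PIF genes as mutated, 1 PIF gene was called lower than in WT and 1 higher. The transcripts therefore do not check every lesion that the pif145 label names. Whole seedlings were sequenced, so fewer cells of a type and less RNA per cell cannot be told apart.

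Promoter windows of the 38 members, 250 bases up to the base before the RefSeq start site (TAIR10.1), were searched on both strands for the G-box CACGTG and the PBE-box CACATG, elements to which PIF proteins are known to bind, and for the I-box GATAAG, an element known from Rubisco small-subunit promoters. The letters of the 3 motifs do not overlap one another in the windows printed here. The windows of GAPA2, HCEF1 and GGT1 are shown because these genes rose in pifq and hold a G-box or PBE-box, and the window of RBCS2B because it holds a G-box and I-boxes and its gene did not pass the test. Capitals mark the motifs, read 5′ to 3′ on the gene's strand.
GAPA2 promoter, chr1:4394455-4394704, minus strand: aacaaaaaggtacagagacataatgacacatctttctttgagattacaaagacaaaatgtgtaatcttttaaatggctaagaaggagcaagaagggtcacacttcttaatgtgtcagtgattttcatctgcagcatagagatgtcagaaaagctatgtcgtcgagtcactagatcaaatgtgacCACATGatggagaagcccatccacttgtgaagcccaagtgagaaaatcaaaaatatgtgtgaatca
HCEF1 promoter, chr3:20016587-20016836, plus strand: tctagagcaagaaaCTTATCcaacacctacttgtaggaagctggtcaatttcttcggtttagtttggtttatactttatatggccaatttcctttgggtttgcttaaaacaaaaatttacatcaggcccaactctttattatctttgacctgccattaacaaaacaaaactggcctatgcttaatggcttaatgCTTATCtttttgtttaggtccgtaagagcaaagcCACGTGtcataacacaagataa
GGT1 promoter, chr1:8272022-8272271, minus strand: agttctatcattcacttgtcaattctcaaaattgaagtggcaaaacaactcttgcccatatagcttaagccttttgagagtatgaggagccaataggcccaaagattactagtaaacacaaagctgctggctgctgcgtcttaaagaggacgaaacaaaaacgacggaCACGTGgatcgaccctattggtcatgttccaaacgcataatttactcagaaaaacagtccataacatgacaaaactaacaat
RBCS2B promoter, chr5:15382072-15382321, minus strand: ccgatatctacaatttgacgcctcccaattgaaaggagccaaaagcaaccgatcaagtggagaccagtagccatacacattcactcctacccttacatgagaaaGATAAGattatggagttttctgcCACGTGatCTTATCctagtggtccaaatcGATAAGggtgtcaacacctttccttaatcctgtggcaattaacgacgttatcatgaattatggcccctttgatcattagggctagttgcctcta
The GAPA2 window holds a PBE-box whose first base is at -66 from the start site, and positions below are given in the same way. The HCEF1 window holds a G-box at -22 and 2 I-boxes, and the GGT1 window a G-box at -82. The RBCS2B window holds a G-box at -123 with 3 I-boxes around it. A G-box was present in 4 of 24 Calvin cycle windows and 2 of 14 photorespiration windows, against 6.49% of the windows of all 27443 protein-coding genes. A PBE-box was present in 2 and 0 windows, against 11.1%, and an I-box in 5 and 1, against 12.3%. Among members that rose in pifq, 2 of 16 had a G-box, and among those tested that did not, 4 of 21 had one. A match describes letters only, and letters downstream of the annotated start site were not searched. The RBCS1B window ends at the letters where the similar stretch of the RBCS2B window goes on into its I-boxes and G-box. That of RBCS3B ends further upstream. The lack of a motif in these windows therefore does not show that the RBCS1B and RBCS3B genes lack it.

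With all 4 PIF genes mutated, 12 of the 23 tested Calvin cycle members and 4 of the 14 photorespiration members were called higher than in WT, and none was called lower. A call means an adjusted p under 0.05 in edgeR's quasi-likelihood test. Where a fit with the replicate letter as a block within each set of libraries (the blocked fit) changes a call in pifq, its adjusted p is given too. The blocked fit takes letter differences out of the error, yet they remain in a comparison across sets, such as pifq against WT. Its p can be too small there, so calls that it alone makes across sets are not taken as firm. Over all 18680 loci tested, 15.2% were called in pifq and 8.01% were called higher. The median log2 fold change was 0.91 for Calvin cycle members and 0.48 for photorespiration members, against -0.01 for all loci. In single libraries of pifq the median deviation of Calvin cycle members from their WT means was 0.85, 0.86 and 0.86 on the log2 scale, and that of photorespiration members 0.64, 0.29 and 0.62. The photorespiration values were lower in all 3 libraries. The difference between the pathways was not tested. All 3 pifq libraries lay above all 3 WT libraries for 22 of the 37 tested members, against 16.4% of all loci, and below them for 1, against 16.3%, and the statements on overlap that follow are to be read against these shares.

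**Figure D1:**
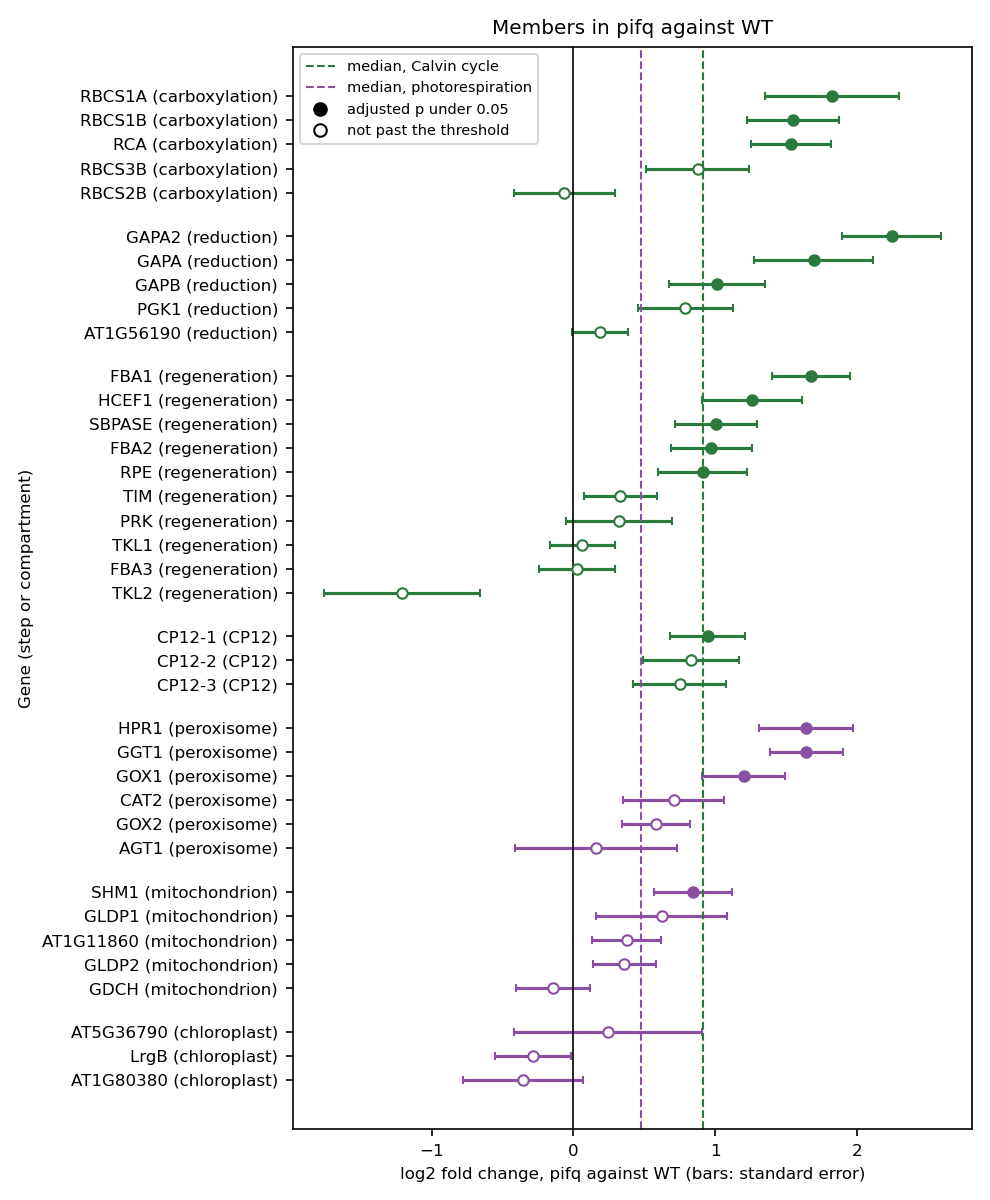
Log2 fold change of each tested member in pifq against WT (points) with its standard error (bars), grouped by step of the Calvin cycle (green) or compartment of photorespiration (purple), with filled points at adjusted p under 0.05 and dashed lines at the pathway medians of 0.91 and 0.48. Filled points lie in every Calvin cycle step, in the peroxisome and in the mitochondrion, and none lies in the chloroplast group of photorespiration.

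Of the carboxylation genes, 3 of 5 rose in pifq. RBCS1A, a Rubisco small-subunit gene (AT1G67090), stood at 1154, 837 and 1488 CPM in WT and at 2276, 7040 and 3011 CPM in pifq, a log2 difference of 1.83 ± 0.47 (standard error of the fit) with adjusted p = 0.00849. The groups did not overlap, and replicate B of pifq was far above the other libraries. RBCS1B (AT5G38430), a second copy, stood at 238, 224 and 243 CPM in WT and 682, 836 and 545 CPM in pifq (1.55 ± 0.32, adjusted p = 0.00121), again without overlap. RBCS3B (AT5G38410), the copy with the highest counts, stood at 4515, 2437 and 3465 CPM in WT and 3916, 10230 and 5002 CPM in pifq. Its groups overlapped, and at an adjusted p of 0.102 the log2 difference of 0.88 ± 0.36 was not called, whereas the blocked fit called it (adjusted p = 0.00242). RBCS2B (AT5G38420) stood at 635, 508 and 731 CPM in WT and 460, 652 and 683 CPM in pifq, with overlapping groups and a log2 difference of -0.06 whose 95% interval ran from -0.76 to 0.63. RCA (AT2G39730), the activase that frees Rubisco of bound sugar phosphates, stood at 556, 371 and 446 CPM in WT and at 1141, 1379 and 1462 CPM in pifq (1.54 ± 0.28, adjusted p = 0.000321). Every pifq library exceeded every WT library for RCA.

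The copies took unequal shares of the small-subunit counts. RBCS2B held 9.70%, 12.7% and 12.3% of the counts of the 4 copies in the WT libraries and 6.27%, 3.47% and 7.39% in those of pifq. RBCS1A held 17.6%, 20.9% and 25.1% in WT and 31.0%, 37.5% and 32.6% in pifq. Both shares were apart in all libraries, in opposite directions. The summed level of the 4 copies was 5491 ± 1323 CPM in WT and 11780 ± 6122 CPM in pifq (SD, n = 3), a ratio of 2.15. In the last 300 bases of the longest annotated transcript of each copy, every run of 36 bases occurs once in the nuclear genome. Only exact matches were counted, and whether the reads fall in these bases was not tested. RBCS1B, RBCS2B and RBCS3B lie next to each other on chromosome 5, between 15376988 and 15385320 in TAIR10.1, and RBCS1A on chromosome 1.

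Of the 5 reduction genes, the 3 encoding subunits of chloroplast glyceraldehyde-3-phosphate dehydrogenase, which uses NADPH, rose. GAPA2 (AT1G12900) showed the largest rise of any member: 241, 281 and 290 CPM in WT and 858, 1802 and 1195 CPM in pifq, a log2 difference of 2.25 ± 0.35 with adjusted p = 4.6e-05. GAPA (AT3G26650) stood at 579, 384 and 578 CPM in WT and 1206, 2433 and 1349 CPM in pifq (1.69 ± 0.42, adjusted p = 0.00604). GAPB (AT1G42970) stood at 472, 629 and 524 CPM in WT and 1459, 844 and 976 CPM in pifq (1.01 ± 0.34, adjusted p = 0.0423). None of the 3 overlapped between the genotypes, and their summed level was 1326 ± 57.3 CPM in WT and 4041 ± 900 CPM in pifq, a ratio of 3.05. The step before it is catalysed by phosphoglycerate kinase. Neither of its plastid genes passed the test: PGK1 differed by 0.79 ± 0.33 (adjusted p = 0.109, and 0.00537 in the blocked fit) without overlap between the groups, and AT1G56190 by 0.19 ± 0.20.

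Of the 11 genes that regenerate the acceptor, 10 were tested and 5 rose. FBA1 (AT2G21330), a plastid fructose-bisphosphate aldolase, stood at 40.5, 46.9 and 51.0 CPM in WT and at 148, 148 and 147 CPM in pifq (1.68 ± 0.27, adjusted p = 8.55e-05). Its 3 pifq libraries lay close together, well above WT. FBA2 (AT4G38970), a second plastid aldolase, rose by 0.97 ± 0.29 from a WT mean of 198 CPM, and FBA3 (AT2G01140) differed by 0.03 ± 0.27 at means of 229 CPM in WT and 233 CPM in pifq. FBA1 held 9.19%, 9.65% and 10.3% of the counts of the 3 aldolase genes in WT and 18.6%, 19% and 20.1% in pifq. HCEF1 (AT3G54050), the chloroplast fructose-1,6-bisphosphatase, stood at 37.0, 58.7 and 64.4 CPM in WT and 148, 95.7 and 140 CPM in pifq (1.26 ± 0.35, adjusted p = 0.0143). SBPASE, the sedoheptulose-bisphosphatase, rose by 1.00 ± 0.29 (adjusted p = 0.0173) and RPE, the ribulose-phosphate epimerase, by 0.91 ± 0.31 (adjusted p = 0.0461). In HCEF1, SBPASE and RPE every pifq library lay above every WT library. PRK, the phosphoribulokinase that makes the Rubisco substrate, stood at 493, 620 and 593 CPM in WT and 665, 456 and 1015 CPM in pifq, and its groups overlapped (0.32 ± 0.37). TIM, the plastid triosephosphate isomerase, differed by 0.33 ± 0.26 and TKL1, the main plastid transketolase gene by counts, by 0.06 ± 0.23, neither past the test. TKL2, a second transketolase gene, was near 1 CPM, at 2.51, 1.11 and 1.18 CPM in WT and 0.71, 0.99 and 0.34 CPM in pifq, and its log2 difference of -1.21 ± 0.55 had an adjusted p of 0.139, and of 0.0186 in the blocked fit.

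CP12 proteins are small regulators that tie phosphoribulokinase and glyceraldehyde-3-phosphate dehydrogenase into an inactive complex in the dark. CP12-1 (AT2G47400), which held 90.6% of CP12 counts in WT on average, stood at 687, 828 and 675 CPM in WT and 1552, 1806 and 869 CPM in pifq (0.95 ± 0.27, adjusted p = 0.0145), without overlap. CP12-2 differed by 0.83 ± 0.34 (adjusted p = 0.0993) and CP12-3 by 0.75 ± 0.33 (adjusted p = 0.121). The blocked fit called both, at adjusted p of 0.0201 and 0.0132. In both all pifq libraries lay above all WT libraries. The shares of the 3 genes overlapped between the genotypes.

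In photorespiration, 3 of the 6 genes for peroxisomal enzymes rose in pifq. GOX1 (AT3G14420), a glycolate oxidase gene, stood at 154, 224 and 142 CPM in WT and 487, 365 and 343 CPM in pifq (1.2 ± 0.30, adjusted p = 0.0055). GGT1 (AT1G23310), the glutamate:glyoxylate aminotransferase that makes glycine, stood at 277, 331 and 212 CPM in WT and 903, 812 and 851 CPM in pifq (1.64 ± 0.26, adjusted p = 4.74e-05). HPR1 (AT1G68010), the hydroxypyruvate reductase that makes glycerate, stood at 13.3, 30.4 and 24.8 CPM in WT and 57.2, 93.0 and 64.4 CPM in pifq (1.64 ± 0.33, adjusted p = 0.000904). None of the 3 overlapped between pifq and WT. GOX2 (AT3G14415), which lies beside GOX1 on chromosome 3 and held 70.9% of the counts of the pair in WT on average, stood at 333, 551 and 388 CPM in WT and 664, 646 and 596 CPM in pifq. Its groups did not overlap, yet at an adjusted p of 0.101 its log2 difference of 0.58 ± 0.24 was not called, whereas the blocked fit called it (adjusted p = 0.0131). GOX1 held 31.6%, 28.9% and 26.7% of the counts of the pair in WT and 42.3%, 36.1% and 36.5% in pifq. CAT2, the catalase that removes the hydrogen peroxide made by glycolate oxidase, differed by 0.71 ± 0.36 (adjusted p = 0.187, and 0.0429 in the blocked fit). AGT1, the serine:glyoxylate aminotransferase, varied widely within WT, at 482, 179 and 158 CPM, and differed by 0.16 ± 0.57. In AGT1 9.43% of the 36-base runs near the 3′ end occur more than once in the genome.

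Of the 5 genes for mitochondrial enzymes only SHM1 rose in pifq. SHM1 (AT4G37930), the serine hydroxymethyltransferase, stood at 176, 213 and 256 CPM in WT and 354, 411 and 393 CPM in pifq (0.85 ± 0.27, adjusted p = 0.0358), without overlap. The other 4 encode parts of glycine decarboxylase, its partner in turning glycine into serine. GLDP1, a P-protein gene, stood at 75.1, 74.6 and 57.2 CPM in WT and 150, 54.2 and 115 CPM in pifq, so that replicate B of pifq lay below every WT library (0.62 ± 0.46). GLDP2, the second P-protein gene, differed by 0.36 ± 0.22, AT1G11860, which encodes the T-protein, by 0.38 ± 0.24, and GDCH, which encodes an H-protein, by -0.14 ± 0.26. None of these 4 passed the test, and the blocked fit called GLDP2 at an adjusted p of 0.0496. In GDCH 9.06% of the 36-base runs near the 3′ end occur more than once.

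None of the 3 genes for chloroplast proteins of photorespiration passed the test in pifq. AT1G80380, the glycerate kinase that closes the route, stood at 248, 76.6 and 88.4 CPM in WT and 78.6, 132 and 112 CPM in pifq (-0.35 ± 0.42). LrgB (AT1G32080), the plastid transporter of glycolate and glycerate, differed by -0.29 ± 0.27, with a 95% interval from -0.81 to 0.24. AT5G36790, a phosphoglycolate phosphatase gene at the entry of the route, had at most 1.11 CPM in any library. All 265 of its 36-base runs near the 3′ end occur more than once in the genome, as do those of AT5G36700, another gene for this enzyme, so its counts do not give the level of the transcript. EMB3119, the untested Calvin cycle member, had between 0.0528 and 0.407 CPM and overlaps a gene on the opposite strand, AT3G01505, by 235 bases. HCEF1 and CAT2 overlap opposite-strand genes by 167 and 95 bases, and the sources used here do not give the strand setting of the counting.

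The 16 calls in pifq were not equally firm. RBCS1B, RCA, GAPA2, FBA1, GOX1, HPR1 and GGT1 kept their call whichever library of pifq or WT was left out. RBCS1A and GAPA lost it without replicate B of pifq (adjusted p = 0.12 and 0.0563) and HCEF1 without replicate A of WT (adjusted p = 0.0887). SBPASE lost its call without WT A, WT C or pifq C, FBA2 without any WT library or pifq B, and CP12-1 without WT A, WT C, pifq A or pifq B. GAPB, RPE and SHM1 each lost it in 5 of the 6 omissions. The count was 9 without WT A and 10 without pifq B. In the blocked fit 24 members were called, beside 32.4% of all loci: the 16, RBCS3B, PGK1, CP12-2, CP12-3, GOX2, GLDP2 and CAT2 higher and TKL2 lower (-1.26). WT and pifq lie in different sets, so the calls made by the blocked fit alone are not taken as firm.

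Transcripts of root hair and seed storage marker genes also differed, which does not show whether cells or RNA per cell changed. In pifq 5 of 7 tested root hair genes and 6 of 9 seed storage genes were called lower, beside 1339 of all 18680 loci. The log2 difference was positive in 1 seed storage gene, which was not called. Their summed levels were 26.8 to 42.4 CPM in WT and 3.01 to 10.5 CPM in pifq for the 8 root hair genes, and 2522 to 4651 CPM in WT and 153 to 761 CPM in pifq for the seed storage genes. The part of these differences in the values of the members was not tested.

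Other genes that serve the 2 pathways were counted from lists chosen by function. Over all 18680 loci tested in pifq, 8.01% were called higher and 1339 loci were called lower. The share called higher was 20% for Rubisco assembly and repair, 5.88% for the counterparts of Calvin cycle enzymes and 25% for further photorespiration. The share of the counterparts was thus no higher than that of all loci. Of 10 tested genes for Rubisco assembly and repair, 2 rose in pifq and none fell: RbcX2, an assembly chaperone, at 5.38, 5.25 and 4.67 CPM in WT and 15.3, 13.3 and 8.44 CPM in pifq (1.28 ± 0.29, adjusted p = 0.00289), and AT3G48420 (0.80 ± 0.26, adjusted p = 0.0395), a phosphatase of a Rubisco inhibitor. The median of that list was -0.05. Of 17 genes for cytosolic or other plastid counterparts of Calvin cycle enzymes, 1 rose, GAPC2, a gene for cytosolic glyceraldehyde-3-phosphate dehydrogenase, at 347, 291 and 388 CPM in WT and 809, 609 and 568 CPM in pifq (0.95 ± 0.27, adjusted p = 0.0179). GAPC1, another gene for that enzyme in the list, was not called. The median of the counterparts was 0.13. Of 24 further genes of photorespiration, among them isoforms, transporters and ammonia recovery, 6 rose and 2 fell, with a median of 0.05. GLU1, the ferredoxin-dependent glutamate synthase, rose by 1.45 ± 0.48 (adjusted p = 0.0388), with WT at 7.80, 11.1 and 16.6 CPM and pifq at 16.2, 40.2 and 40.6 CPM, so that the groups overlapped. PGLP1 (AT5G36700) was called at under 0.5 CPM. AT2G35120, another H-protein gene of glycine decarboxylase, fell from 384, 239 and 333 CPM in WT to 161, 186 and 156 CPM in pifq (-0.93 ± 0.23, adjusted p = 0.00565), without overlap. Of the 4 tested genes of the glyoxylate cycle, through which stored oil feeds sugar synthesis, the log2 differences in pifq ran from -0.73 to 0.21 with adjusted p of 0.275 or more, and the summed level of all 5 was 19040 to 35040 CPM in WT and 16190 to 44730 CPM in pifq.

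The triple mutants and the libraries labelled pif134 were compared with the same WT libraries, so the comparisons are not independent of each other or of pifq against WT. In pif145, which keeps PIF3, 8 Calvin cycle and 3 photorespiration members were called, all higher, and 12.1% of all loci were called (6.53% higher). In pif135, which keeps PIF4, these counts were 11 and 3, with 12.6% of all loci called (6.79% higher). In the libraries labelled pif134 they were 9 and 3, with 16.9% of all loci called (9.12% higher). The pathway medians of the log2 fold change were 0.87 and 0.68 in pif145, 0.91 and 0.57 in pif135 and 0.69 and 0.53 in the libraries labelled pif134, Calvin cycle first, while those of all loci were 0.02, 0.03 and -0.02. By single library the order of the pathways was not constant. In replicate A the median deviation from WT was 0.72 and 0.81 in pif145 and 0.38 and 0.70 in the libraries labelled pif134. The photorespiration value was the lower one in their replicates B and C and in all of pif135. In all 3 comparisons the photorespiration members called were GOX1, HPR1 and GGT1, all of the peroxisome, and no gene of the mitochondrion or chloroplast group was called. The blocked fit also called mitochondrial members, SHM1 in all 3 (adjusted p = 0.00965, 0.00675 and 0.043), GLDP2 in pif145 and pif135 (adjusted p = 0.03 and 0.0387) and AT1G11860 in the libraries labelled pif134 (adjusted p = 0.00958). These comparisons cross the sets, where the p of the blocked fit can be too small, so these calls are not taken as firm.

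**Figure D2:**
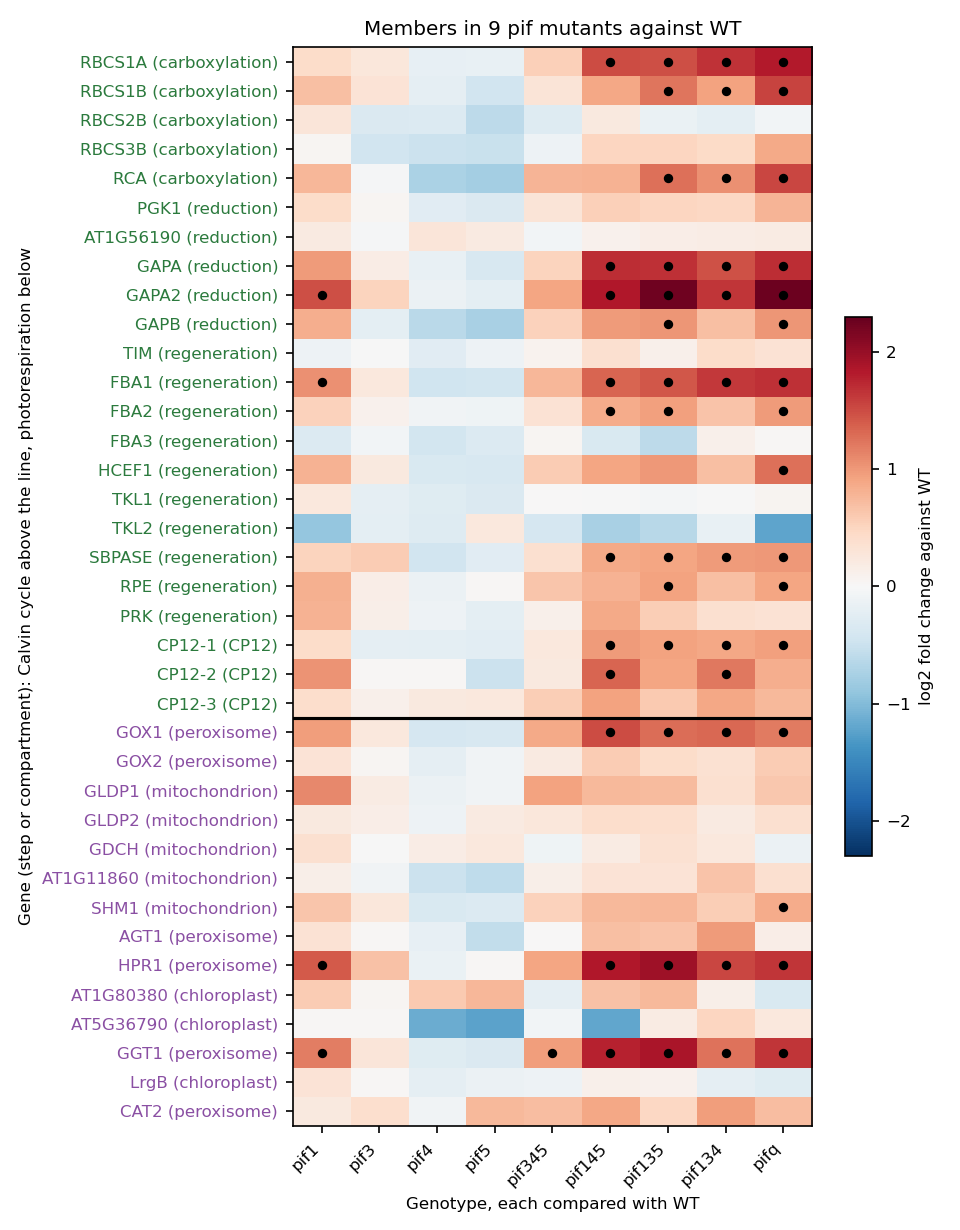
Log2 fold change against WT (colour) of the 37 tested members (rows, Calvin cycle above the line and photorespiration below) in 9 mutants (columns), with a dot at adjusted p under 0.05. Dots fill the columns pif145, pif135, pif134 and pifq for 9 members, GGT1 has the single dot of pif345, and the columns pif3, pif4 and pif5 have none.

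The members called in pifq and in all 3 of these genotypes numbered 9: RBCS1A, GAPA, GAPA2, FBA1, SBPASE, CP12-1, GOX1, HPR1 and GGT1. Of all loci tested, 2.72% were called higher in the 4 comparisons, which share WT. GAPA2 rose by 1.84 ± 0.34, 2.25 ± 0.35 and 1.65 ± 0.34 on the log2 scale in pif145, pif135 and the libraries labelled pif134. GGT1 stood at 1028, 630 and 1148 CPM in pif145, at 1092, 814 and 1117 CPM in pif135 and at 650, 590 and 705 CPM in the libraries labelled pif134, each above all WT libraries. HPR1 rose by 1.83 ± 0.33, 1.96 ± 0.34 and 1.54 ± 0.33. CP12-2 was called in pif145 (1.34 ± 0.34, adjusted p = 0.0102) and in the libraries labelled pif134 (1.21 ± 0.34, adjusted p = 0.0132), and in pifq its adjusted p was 0.0993. Over the 9 mutants 17 members were called higher at least once, against 14.3% of all loci, and none was called lower, against 13.4%. The other 20 tested members were called in no mutant, as were 72.4% of all loci. RBCS2B was among the latter, with 719, 669 and 810 CPM in pif145, 513, 607 and 564 CPM in pif135 and 357, 565 and 678 CPM in the libraries labelled pif134.

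GAPA2, FBA1, GOX1, HPR1 and GGT1 kept their calls in these 3 genotypes whichever library was left out. RBCS1A lost its call in each of them without replicate B of the mutant or WT B, and in pif145 and pif135 also without WT A or WT C. SBPASE lost its call in 5, 5 and 3 of the 6 omissions in pif145, pif135 and the libraries labelled pif134, and CP12-1 in 3, 4 and 3. GAPA lost it without pif135 B, and in the libraries labelled pif134 without their B or WT B. In each of the 5 genotypes of triple mutants and pifq, replicate B held the highest RBCS1A level, from 2550 CPM in pif345 to 7040 CPM in pifq. The number of members called was 7 in pif145 without WT C, 9, 8 and 7 in pif135 without WT A, WT C and pif135 B, and 7 in the libraries labelled pif134 without their replicate B. In the blocked fit, 23 members were called in pif145, 21 in pif135 (FBA3 lower) and 22 in the libraries labelled pif134, where 29.6%, 29.3% and 32.5% of all loci were called. The calls added by that fit cross the sets and are not taken as firm. Summed seed storage levels were 38.2 to 371 CPM in pif145, 50.6 to 247 CPM in pif135 and 15.0 to 299 CPM in the libraries labelled pif134. Summed root hair levels were 3.39 to 15.5, 9.49 to 22.5 and 1.11 to 2.58 CPM. Their part in these values was not tested.

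**Figure D3:**
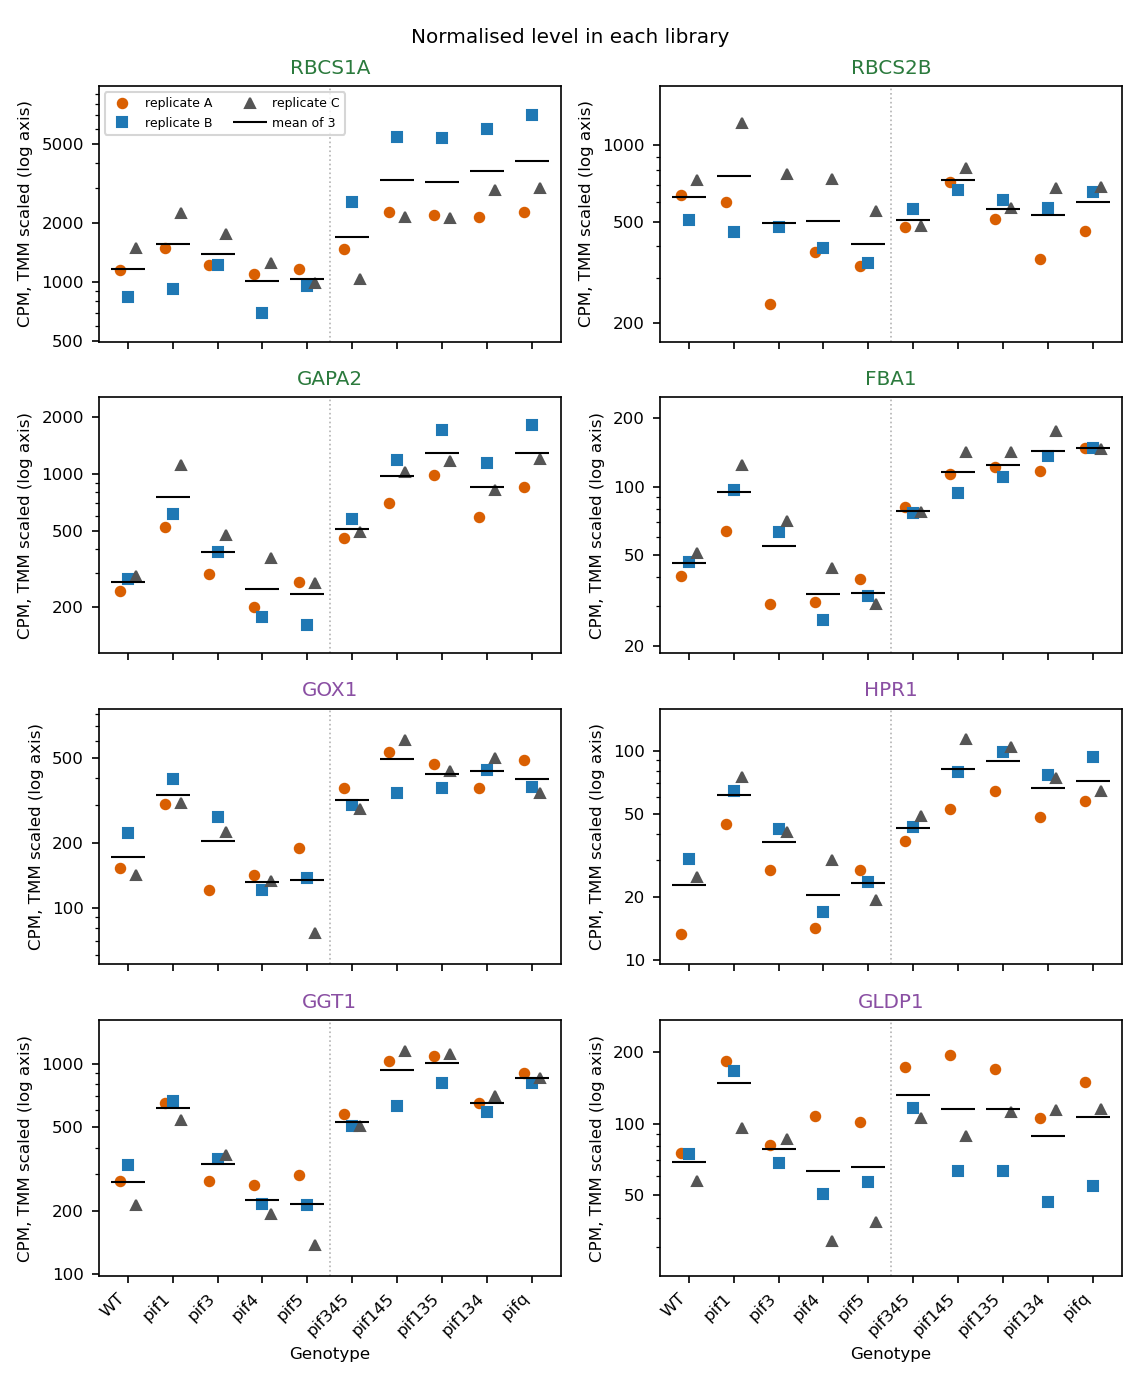
Normalised level (CPM after TMM scaling, log axis) of 8 members in each library of the 10 genotypes, with replicates A, B and C as separate symbols, a bar at the mean of 3 and a dotted line between the 2 sets of libraries. RBCS1A is highest in replicate B to the right of the line, RBCS2B overlaps its WT values in the triple mutants and pifq, and the GGT1 libraries of pif1 and of all genotypes to the right of the line lie above WT.

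The triple mutant that keeps PIF1, pif345, stood closer to WT. Only GGT1 was called, at 579, 506 and 505 CPM against 277, 331 and 212 CPM in WT (0.95 ± 0.25, adjusted p = 0.0268), while 3.90% of all loci were called and 2.42% were called higher. The call was lost in 5 of the 6 omissions of a library, all but that of WT B. The median log2 fold change was 0.30 for Calvin cycle and 0.23 for photorespiration members, against 0.00 for all loci. GAPA2 differed by 0.92 ± 0.34 (adjusted p = 0.13), HPR1 by 0.90 ± 0.33 (adjusted p = 0.125) and GOX1 by 0.87 ± 0.29 (adjusted p = 0.097), and in all 3 every pif345 library lay above every WT library, as in 13 of the 37 members and 14% of all loci. With the letter as a block within sets, 7 members were called higher: RCA, GAPA2, FBA1, GOX1, GLDP1, HPR1 and GGT1, beside 16.5% of all loci. This comparison crosses the sets too, so the calls added by the block are not taken as firm. Fitted with WT alone, pif345 gave 5 members, a count without the share of all loci in that fit and so no result about the members. Summed seed storage levels were 2352 to 4289 CPM and overlapped those of WT, and summed root hair levels were 8.24 to 13.8 CPM.

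Loss of PIF1 alone raised members of both pathways, in a comparison within 1 set of libraries. In pif1, GAPA2, FBA1, HPR1 and GGT1 were called higher and none lower, 2 from each pathway, beside 3.76% of all loci called and 1.78% called higher. GAPA2 stood at 527, 617 and 1114 CPM in pif1 (1.47 ± 0.34, adjusted p = 0.0122) and FBA1 at 63.7, 97.0 and 125 CPM (1.05 ± 0.27, adjusted p = 0.0261). HPR1 stood at 44.5, 64.1 and 74.9 CPM (1.42 ± 0.33, adjusted p = 0.013) and GGT1 at 654, 665 and 540 CPM (1.18 ± 0.25, adjusted p = 0.00703). Each of the 4 was above all WT libraries, as were 15 of the 37 members and 14.2% of all loci. The pathway medians were 0.51 for the Calvin cycle and 0.35 for photorespiration, against 0.04 for all loci, and 34 of the 37 tested members had a positive log2 fold change, called or not, against 53.0% of all loci. RBCS1A and RBCS3B differed by 0.42 ± 0.46 and 0.04 ± 0.36, neither past the test, and the summed small-subunit level was 1.14 times that of WT. GLDP1 differed by 1.11 ± 0.47, at 184, 168 and 96.2 CPM against a highest WT value of 75.1 CPM, with an adjusted p of 0.176.

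The pif1 counts depended on single libraries: 0 members were called without WT C, 1 without WT A (GGT1) or pif1 C (GGT1), and 2 without pif1 B. With the letter as a block within sets 15 members rose, 10 of the Calvin cycle and 5 of photorespiration, and 19.6% of all loci were called. The photorespiration genes among these were GOX1, GLDP1, SHM1, HPR1 and GGT1, with GLDP1 at 1.06 (adjusted p = 0.0094). In pif1 the seed storage sum was 56.4 to 76.5 CPM and the root hair sum 10.3 to 17.1 CPM, both below all WT libraries, and the glyoxylate cycle sum was 7714 to 11260 CPM. Whether these move the values of the members was not tested.

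Loss of PIF3, PIF4 or PIF5 alone gave no called member. In edgeR's test 0 members were called in each of pif3, pif4 and pif5, where 0.112%, 0.0589% and 0.128% of all loci were called, and DESeq2 also called 0. At an unadjusted p under 0.05 there were 1, 2 and 4 of 37 members (2.70%, 5.41% and 10.8%), against 4.11%, 3.62% and 12.8% of all loci, so the members below are named as values and not as changes. In pif3 this was HPR1, at 26.8, 42.4 and 40.7 CPM (0.68 ± 0.33). In pif4 these were RCA, at 265, 202 and 365 CPM and below all WT libraries (-0.72 ± 0.28), and AT1G11860 (-0.50 ± 0.24). In pif5 they were RCA, at 379, 183 and 239 CPM with overlap (-0.78 ± 0.28), GAPB (-0.75 ± 0.34), AT1G11860 (-0.58 ± 0.24) and CAT2 (0.75 ± 0.36). The pathway medians, Calvin cycle first, were 0.05 and 0.10 in pif3, -0.26 and -0.19 in pif4, and -0.31 and -0.11 in pif5, against 0.02, -0.01 and -0.01 for all loci. The log2 fold change was positive, called or not, in 25, 5 and 9 of the 37 tested members, against 52.5%, 49.2% and 49.2% of all loci. All 3 mutant libraries lay below all WT libraries in 0, 5 and 6 members, against 4.18%, 4.49% and 9.11%, and above them in 2, 0 and 0, against 4.23%, 4.38% and 8.65%. The members were not tested as a set. With the letter as a block within sets, RCA (-0.81, adjusted p = 0.0269) and AT1G11860 (-0.63, adjusted p = 0.0398) were called lower in pif5, beside 7.29% of all loci, and no member was called in pif3 or pif4, beside 0.278% and 0.0964%.

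Comparing pifq with a triple mutant asks what losing the 1 remaining PIF gene changes, within 1 set of libraries. Against pif345, 2 members were called, RBCS1B and GAPA2, both higher in pifq, while 2.75% of all loci were called and 1.07% were called higher. RBCS1B stood at 354, 330 and 181 CPM in pif345 (1.26 ± 0.32, adjusted p = 0.0239) and GAPA2 at 460, 579 and 494 CPM (1.33 ± 0.34, adjusted p = 0.0239), and every pifq library was above them, as in 13 of the 37 members and 11.4% of all loci. FBA1, at 81.2, 76.4 and 77.2 CPM in pif345, had an adjusted p of 0.0665. The medians were 0.60 for Calvin cycle members and 0.20 for photorespiration members, against 0.02 for all loci, and the log2 difference was positive, called or not, in 21 of 23 and 9 of 14 members and in 51.8% of all loci. No member was called without pif345 A, pif345 B, pif345 C or pifq B, and 1 was called without pifq A or pifq C. With the letter as a block, 11 members were called, all higher, beside 10.4% of all loci: RBCS1A, RBCS1B, RBCS3B, RCA, GAPA, GAPA2, FBA1, FBA2, CP12-1, HPR1 and GGT1.

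**Figure D4:**
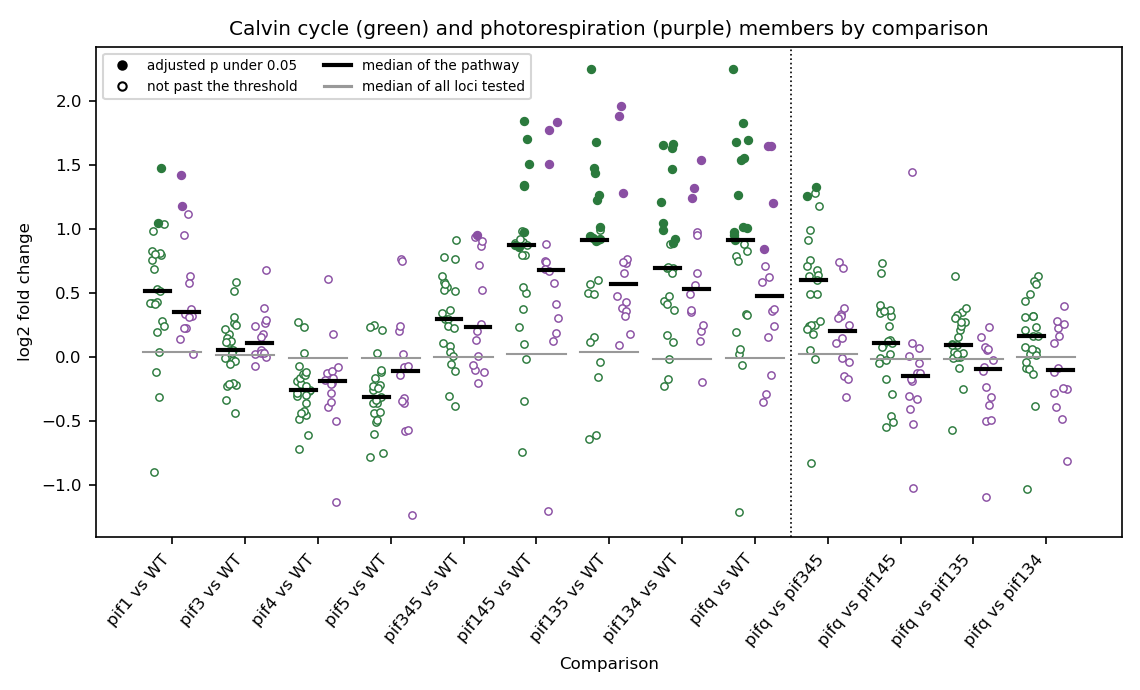
Log2 fold change of Calvin cycle (green) and photorespiration (purple) members in 9 comparisons with WT and 4 comparisons of pifq with another genotype (right of the dotted line), with filled points at adjusted p under 0.05, black bars at the pathway medians and grey lines at the median of all loci tested. Both medians lie above the grey line in pif1, narrowly in pif3, and from pif345 to pifq. Both lie below it in pif4 and pif5, and right of the dotted line only 2 green points of pifq against pif345 are filled.

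Against pif145, pif135 and the libraries labelled pif134, pifq gave 0 called members by edgeR and 0 by DESeq2, while 0.551%, 0.696% and 1.35% of all loci were called. At an unadjusted p under 0.05 there were 3, 2 and 0 of 37 members (8.11%, 5.41% and 0%), no more than the 8.11%, 12.6% and 8.26% of all loci, and those named here are values and not changes. Against pif145 these were RBCS1B (0.66 ± 0.32), RCA (0.74 ± 0.28) and AT1G80380 (-1.02 ± 0.43), and against pif135 FBA3 (0.63 ± 0.27) and AT1G80380 (-1.10 ± 0.43). AT1G80380, the glycerate kinase gene, stood at 229, 278 and 149 CPM in pif145 and 250, 248 and 193 CPM in pif135, above all 3 pifq libraries. The Calvin cycle median was 0.11, 0.10 and 0.16 in the 3 comparisons and the photorespiration median -0.15, -0.10 and -0.10. GAPA2 and GGT1, the members with the smallest adjusted p in pifq against WT, did not pass the test in any of them. With the letter as a block within sets, FBA3 was called higher in pifq than in pif135 (0.62, adjusted p = 0.0221), beside 6.49% of all loci, and no member was called against pif145 or the libraries labelled pif134, beside 2.11% and 3.35%.

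The interactions ask whether losing a PIF has another effect in the triple mutant that keeps it than in WT, and use differences within sets only. For PIF1, PIF3 and PIF4, edgeR called 0 members and DESeq2 0, beside 0.653%, 0.219% and 0.525% of all loci. At an unadjusted p under 0.05 there were 1, 0 and 3 of 37 members (2.70%, 0% and 8.11%), fewer than the 15.9%, 5.93% and 12.4% of all loci, so their values are given as a description. GLDP1 gave -1.42 ± 0.66 in the PIF1 interaction (adjusted p = 0.289), as it differed by 1.11 between pif1 and WT and by -0.31 between pifq and pif345. RCA (1.00 ± 0.39), FBA3 (1.05 ± 0.38) and AT1G80380 (-1.70 ± 0.60) did so in the PIF4 interaction, with adjusted p from 0.203 to 0.26. With the letter as a block within sets, RBCS3B (0.91, adjusted p = 0.0311) and GLDP1 (-1.50, adjusted p = 0.0146) were called in the PIF1 interaction, beside 13.4% of all loci, and RCA (1.00), FBA3 (1.05) and AT1G80380 (-1.87) in the PIF4 interaction, beside 7.01%, and none in the PIF3 interaction, beside 0.798%. The interaction of PIF5 was left out because PIF1 transcript is not low in the libraries labelled pif134.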

How the data were processed

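RNA was measured in 30 libraries, 3 biological replicates of each of 10 genotypes, and groups were taken from the labels. Per the labels' protocols, poly(A) 3′ ends were captured in a directional library from 20 µg of total RNA, with technical duplicate runs that have no separate columns in the files. Bowtie 0.12.7, edgeR without a version and the TAIR10 build were used per the submitters' processing notes. How reads were assigned to loci, and what was done with reads that map to several places, is not given in the sources used here. The deposited values are the authors' raw counts per locus. In 3 libraries the unnamed last value is not whole, so that these deposited columns as a whole pass only as estimated counts. All named values in them are whole and were used as counts, like those of the other libraries. The unnamed last value of each column (at most 0.0015% of the total) was left out.

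All libraries were fitted together with genotype as the only term by edgeR 4.0.16 (R 4.3.3), on the 18680 loci that filterByExpr kept at a minimum count of 10. Scaling was by TMM (factors 0.779 to 1.2). The quasi-likelihood test was adjusted by the Benjamini-Hochberg method over all loci within each comparison, and a call is an adjusted p under 0.05. Standard errors were worked back from the F statistic. Log CPM used a prior count of 2. Replicates of a genotype differed by more than counting error, and the code was tested on simulated data. The depth limits members under about 1 CPM.

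Members and gene lists were chosen, and the steps of the pathways grouped, with earlier results of these data known. Any member may be named. Values per library are given for called members with the largest changes, for isoforms that differ in call and for the leading genes of other lists, and members outside this rule were named after their values were seen. Whether letters pair the libraries was judged from correlated deviations from the genotype means. All 3 correlations exceeded 0.1 in 19 of 20 genotype pairs within the 2 sets and in 1 of 25 across them, so the block within sets is given beside results it changes. In comparisons across sets this block lowers the error but leaves letter differences in the comparison, so its p can be too small. Alternatives were RLE factors, total counts, no filter, DESeq2 1.42.0, both blocks, a fit of only the genotypes compared, and leaving out each library. All 38 members matched TAIR10.1 by locus tag, and coordinates and promoter letters come from that RefSeq assembly, since the count files hold none.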

Additional observations from a re-analysis of the deposited data

How the results depend on the processing

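Of 60 member calls, all kept their direction under every alternative. The share of all loci called moves with the fit, in pif1 from 3.76% to 19.6% with the replicate block within sets. For the other fits it is not given here, so the counts below describe the fits and are no result about the members. With the replicate block and no regard to sets, the number of members called was 8 in pif1, 5 in pif345 and 21 in pif145. With the replicate block within sets it was 15 in pif1, 2 in pif5, 7 in pif345, 23 in pif145, 22 in the libraries labelled pif134, 11 in pifq against pif345, 1 in pifq against pif135, 2 in the PIF1 interaction and 3 in the PIF4 interaction, and the paired fit changed no other count by more than 1.5 times. Fits of only the genotypes compared gave 5 in pif345 and 7 in pif145. Scaling by total counts gave 2 in pif345 and 0 in pifq against pif345, and Calvin cycle medians of -0.13 in pif5, 0.47 in pif345, 0.37 in pifq against pif345 and -0.31 in the PIF1 interaction. It moved the median of all loci to 0.14 in pif1, 0.14 in pif3, 0.19 in pif5, 0.17 in pif345, -0.13 in the libraries labelled pif134, -0.21 and -0.11 in pifq against pif345 and pif135, and -0.35, -0.21 and -0.14 in the PIF1, PIF3 and PIF4 interactions. The cause was not tested.

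Leaving out 1 library at a time, the number of members called ranged from 0 to 4 in pif1, 0 to 1 in pif345, 7 to 11 in pif145, 7 to 11 in pif135, 7 to 15 in the libraries labelled pif134, 9 to 14 in pifq and 0 to 1 in pifq against pif345. The Calvin cycle median ranged from 0.64 to 0.92 in pif145, 0.70 to 0.88 in pif135, 0.78 to 0.93 in pifq and 0.44 to 0.58 in pifq against pif345, and the photorespiration median from 0.15 to 0.50 in pif345. Member calls were kept in 238 and lost in 122 of these omissions, and kept in 389 and lost in 31 fits under the other alternatives. Low counts limit TKL2, AT5G36790 and EMB3119, and the repeated 3′ end of AT5G36790 limits that gene as well.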
